A study of Mus musculus with 10 samples.

Results

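Genes of unconventional myosins that are known from hair cells (HCs), Myo6, Myo7a, Myo15, Myo3a, Myo3b, Myo1c and Myo1h, were followed through the cell classes of the aged mouse inner ear. These 7 of the 32285 genes in the count tables were taken by symbol, and all 7 were found. The cells came from wild-type CBA/J mice of 22 months, an inbred strain with late-onset hearing loss, and the study used males and females. The cochlear and the vestibular sensory epithelia were digested with collagenase IV, and 7 or 8 mice were pooled for each library, so that 1 library is 1 pool of animals and not 1 mouse. No group carried a transgene or a treatment. Young mice are not part of these values, which are levels at 1 age.

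Unconventional myosins are actin motors that do not form the thick filaments of muscle. In HCs they build and hold the bundle of actin-filled stereocilia that carries the mechanotransduction channels. Myosin VI moves to the pointed ends of actin filaments, towards the base of the bundle. Myosin VIIa is placed at the upper ends of the tip links that pull on the channels, and myosin XV carries whirlin and EPS8 to the stereocilia tips, where they set the length of the actin core. The class III myosins, MYO3A and MYO3B, are motors with a kinase domain that bring espin and espin-like to the tips. Class I myosins tie actin to membranes, and MYO1C and MYO1H have been discussed as motors that adapt the transduction current. Loss of MYO6, MYO7A, MYO15A or MYO3A causes deafness, and loss of MYO6, MYO7A or MYO15A also disturbs balance in mice.

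Each organ was sampled in 5 replicates, but replicates 1 and 2 of an organ held the same cells. Replicate 2 of the cochlea shared 1313 of its 1313 barcodes with replicate 1, and that of the vestibule shared 1633 of 1641, whereas no other pair of libraries shared more than 41. The counts of both files agreed within sampling noise (chi-square per gene 0.127 and 0.122, against 35.5 and 55.5 between replicates 1 and 4), and they were counted as 1 sample, with n = 4 per organ (replicates 1, 3, 4 and 5). From 571 to 5070 cells per cochlear library and 867 to 5438 per vestibular library were kept, with 2061435 to 20118973 and 3335350 to 18899105 unique molecular identifiers (UMIs).

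The cell classes were rebuilt from marker genes by clustering, and the 7 myosins were held out of the clustering and of the markers, so that no class was defined by them. HCs of the vestibule (vHCs) comprised 1488 type I and 215 type II HCs, and those of the cochlea (cHCs) comprised 73 inner (IHCs) and 77 outer HCs (OHCs). The names are short for clusters that are like these cells by their markers. Prestin (Slc26a5) had a UMI in 84.4% of the OHCs, Sox2 in 75.8% of the type II HCs and Adam11 in 92.7 to 98.3% of the cells of 4 of the 5 type I subclusters, and in 85.8% of the fifth. The glutamate transporter gene Slc17a8 had a UMI in all 37 IHCs of one subcluster (median 10481 UMIs) and in 41.7% of the 36 IHCs of the other (median 1790 UMIs). These shares are no separate check of the names. Sox2 and Adam11 set the vestibular types, and Slc26a5 and Slc17a8 are among the markers that set the cochlear ones. No cell of replicate 1 was kept as an IHC, and 49 of the 73 came from replicate 3. A further 62 vHCs, led by Zp3, had Sox2 in 93.5% and Adam11 in 1.61% of cells, which is the side of type II HCs. Fewer than 3 of the type II markers were found in at least 25% of these cells. They stayed unnamed and do not enter the sums of type II HCs or of vHCs. Another 509 vestibular and 80 cochlear cells that mixed the markers of HCs and another class were left out. The 80 cochlear cells, 26 of them from replicate 1, carried 5 of 5 IHC markers and 4 of 8 supporting cell markers. Slc17a8 had a UMI in 86.25% of them. Markers of other classes in the HC sums were low for macrophages, with at most 12.9 CPM (counts scaled to 1000000 UMIs) summed over 6 genes. They moved with the comparisons below in other lists: 8 supporting cell genes, of which Sox2 is also a type II marker, summed to 642 to 691 CPM in type II and 89.7 to 116 CPM in type I HCs, and 5 neuron genes to 1279 to 1798 CPM in vHCs and 141 to 184 CPM in cHCs. The 8 fibrocyte or mesenchymal genes summed to 219 to 1697 CPM in OHCs and 0 to 123 CPM in IHCs, without overlap, and 4 erythroid genes to 0 to 7012 CPM and 0 to 113 CPM. Their part in the results was not tested.

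In the GENCODE M21 annotation (GRCm38), the class III genes both lie on chromosome 2, Myo3a at 22227503 to 22618252 and Myo3b at 70039126 to 70429198, each on the plus strand. Myo15 lies at 60469339 to 60528369 and Myo1c at 75650504 to 75673910 on the plus strand of chromosome 11. Myo6 is on chromosome 9 (80165031 to 80311729, plus strand), Myo7a on chromosome 7 (98051060 to 98119524, minus strand) and Myo1h on chromosome 5 (114289166 to 114365357, plus strand).

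The 250 bases before the start are printed for Myo3a and Myo3b, the pair of paralogs whose levels differed in opposite directions between the organs, and for Myo15, whose level differed between the types within both organs. For these 3 genes the RefSeq window (GRCm38.p6) ends at the base before the GENCODE start. The windows are chr11:60469089-60469338, chr2:22227253-22227502 and chr2:70038876-70039125, all on the plus strand. Capitals mark the E-box (CANNTG, which reads alike on both strands and is the core motif of basic helix-loop-helix factors such as ATOH1) and the GC box (GGGCGG or CCGCCC on the other strand), motifs that do not overlap here.
Myo15: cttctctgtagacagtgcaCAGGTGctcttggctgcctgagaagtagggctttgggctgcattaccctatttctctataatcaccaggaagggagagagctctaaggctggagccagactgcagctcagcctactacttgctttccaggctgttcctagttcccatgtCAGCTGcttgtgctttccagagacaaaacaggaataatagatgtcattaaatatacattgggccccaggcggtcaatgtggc
Myo3a: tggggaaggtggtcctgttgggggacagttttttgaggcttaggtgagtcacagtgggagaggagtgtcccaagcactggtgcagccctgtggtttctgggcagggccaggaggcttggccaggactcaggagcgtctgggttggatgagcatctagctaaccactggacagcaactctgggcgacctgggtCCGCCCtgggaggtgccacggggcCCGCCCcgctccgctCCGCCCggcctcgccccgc
Myo3b: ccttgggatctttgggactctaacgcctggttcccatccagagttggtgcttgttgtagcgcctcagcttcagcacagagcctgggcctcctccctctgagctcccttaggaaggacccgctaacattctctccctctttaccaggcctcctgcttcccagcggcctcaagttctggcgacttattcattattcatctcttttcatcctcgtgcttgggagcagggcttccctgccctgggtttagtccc
Myo15 held 2 E-boxes and no GC box, Myo3a held 3 GC boxes and no E-box, and Myo3b held neither. Of all 32851 such windows, 66.2% held an E-box and 32.7% a GC box. The share of G and C was 49.6% for Myo15, 66% for Myo3a and 56% for Myo3b, against a median of 52.4%. These matches are letters in a window and were not tied to any measurement of binding.

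The level of a gene is given as CPM of the UMIs summed over the cells of a class in a library. UMIs count the 3′ ends of transcripts, so isoforms of a gene were not told apart. For 6 of the 7 genes, every HC library of at least 1 organ lay above every library of all other named classes of that organ, and Myo1c was the exception.

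**Figure D1:**
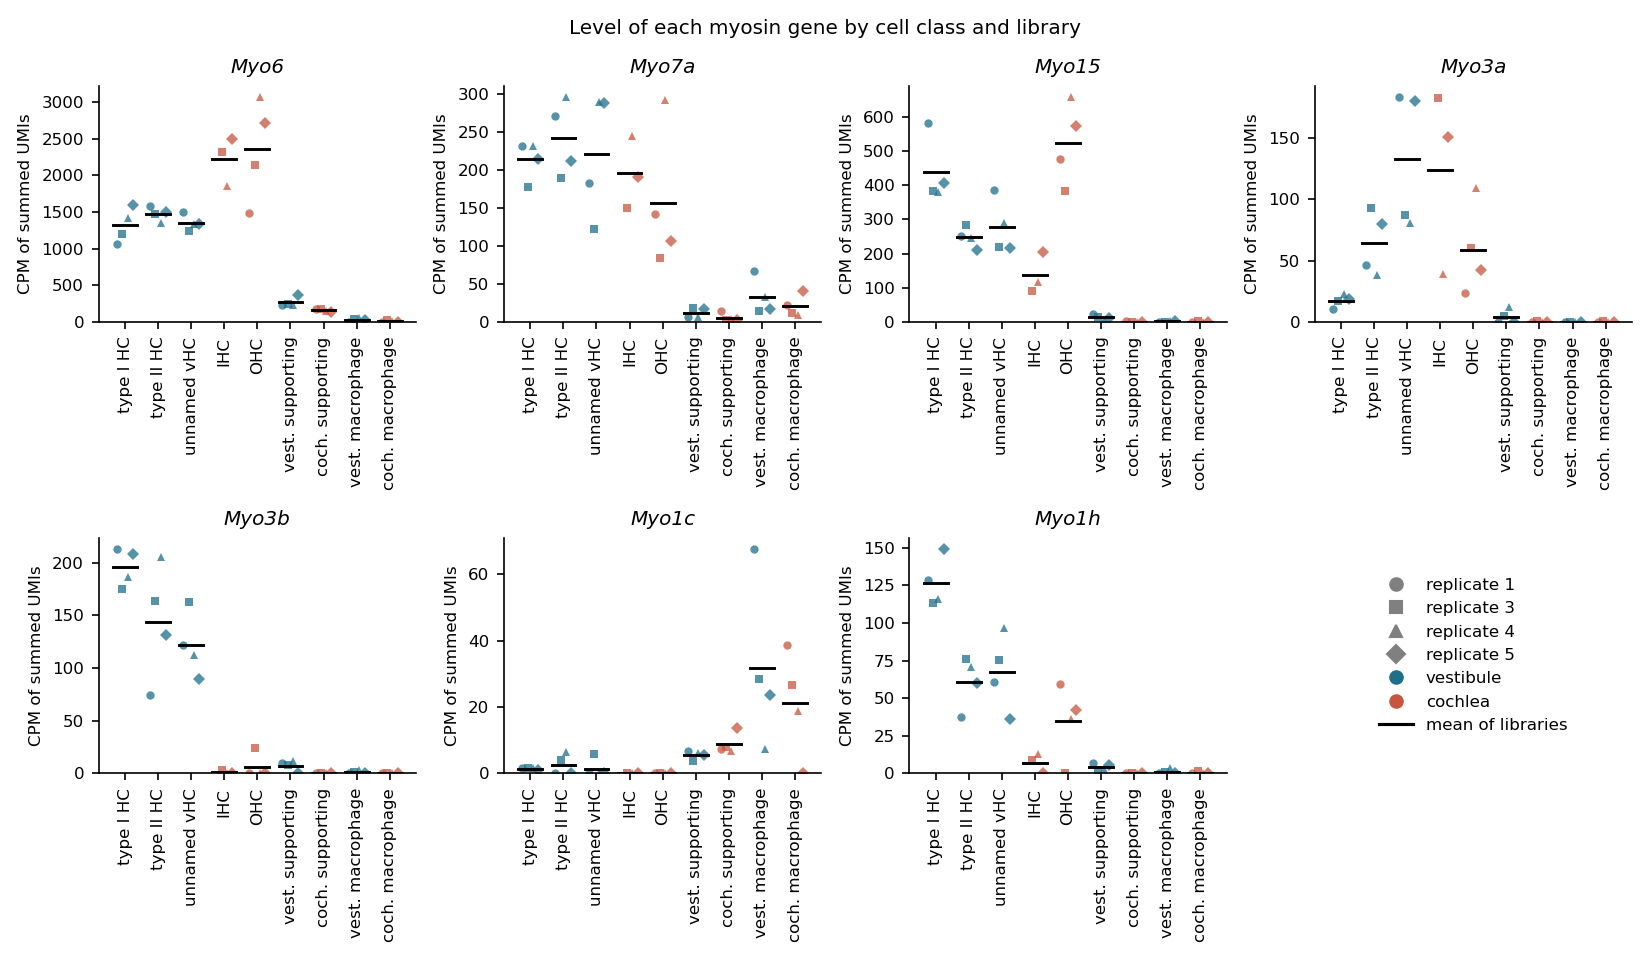
CPM of summed UMIs (vertical axis, from 0, a scale of its own for each gene) in 5 HC classes and in supporting and macrophage-like cells of both organs; points are libraries, and bars are the mean of libraries. Myo3b lay at 74.7 CPM or more in every type I and type II library and at 23.9 CPM or less in every cochlear one, and the means of Myo1c were higher in macrophage-like and supporting cells than in HCs.

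Myo6, the motor of the stereocilia base, was at 2129 ± 462 CPM in cHCs and 1343 ± 194 CPM in vHCs (SD, n = 4 each). Its levels in type I HCs were 1065, 1204, 1419 and 1597 CPM in replicates 1, 3, 4 and 5, and in type II HCs 1587, 1471, 1351 and 1505 CPM. IHCs held 2315, 1856 and 2489 CPM in replicates 3, 4 and 5. OHCs held 1486, 2141, 3063 and 2715 CPM in replicates 1, 3, 4 and 5, so that only replicate 1 fell into the range of the vHCs. In the order of the means, OHCs (2351 ± 691 CPM), IHCs (2220 ± 327), type II HCs (1479 ± 97.9), unnamed vHCs (1353 ± 109) and type I HCs (1322 ± 234), the ranges over libraries overlapped between all neighbours except IHCs and type II HCs.

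Between the organs Myo6 was 1.64-fold higher in cHCs (log2 fold change 0.71 ± 0.26 SE, adjusted p = 0.0429, edgeR quasi-likelihood test, n = 4 each). This comparison, in which 28.8% of 7464 genes tested were called, was at the edge of its threshold for Myo6. Only 8 of 21 alternative settings kept the call, with adjusted p between 0.00045 and 0.211, and of the 8 fits without 1 library only that without cochlea replicate 1 did. Type II and type I HCs differed by 0.10 ± 0.21 (adjusted p = 0.837), and OHCs and IHCs by 0.01 ± 0.24 (adjusted p = 0.998), both on the log2 scale.

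Myo6 was also the member most found outside HCs. The other named cells of an organ together held 123 ± 20.3 CPM in the cochlea and 154 ± 16.6 CPM in the vestibule. Its level was not alike in all of them: fibrocyte or mesenchymal cells held 160 ± 24.7 and 227 ± 23.1 CPM, supporting cells 158 ± 18.4 and 267 ± 63.3 CPM, and macrophage-like cells 9.04 ± 12.6 and 31.7 ± 24.2 CPM (cochlea and vestibule, n = 4 each). In all 11 cochlear and 12 vestibular named classes, every library lay below every HC library of that organ. The 10 clusters that stayed without a name held 32.4 to 462 CPM of Myo6 over their pooled cells.

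Myo7a, the tip link motor, gave the most even levels over the HC classes. Replicates 1, 3, 4 and 5 held 232, 178, 232 and 214 CPM in type I HCs and 271, 189, 296 and 212 CPM in type II HCs. IHCs held 150, 245 and 191 CPM in replicates 3, 4 and 5, and OHCs 143, 83.7, 292 and 106 CPM in replicates 1, 3, 4 and 5. The ranges of all neighbours in the order overlapped, from type II HCs (242 ± 49.8 CPM) through unnamed vHCs (221 ± 82.6), type I HCs (214 ± 25.3) and IHCs (196 ± 47.3) to OHCs (156 ± 93.7). OHC values rest on 5 to 12 UMIs in a library.

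None of the 3 comparisons called Myo7a. The difference between cHCs and vHCs was -0.31 ± 0.22 on the log2 scale (adjusted p = 0.335), between type II and type I HCs 0.07 ± 0.18 (adjusted p = 0.867), and between OHCs and IHCs -0.44 ± 0.33 (adjusted p = 0.392). Between the organs the call was made in 2 of 21 alternatives (adjusted p between 0.0208 and 0.606 over all of them). With the mixed cells kept as HCs, cHCs were lower by -0.60 (adjusted p = 0.0208), and with equal weights for the 2 classes of each organ by -0.47 (adjusted p = 0.0395). Outside HCs, Myo7a was highest in macrophage-like cells, at 21.3 ± 14.4 CPM in the cochlea and 32.8 ± 24.7 CPM in the vestibule.

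Myo15, the motor that extends stereocilia from their tips, separated the HC types within each organ. In type II HCs it was at 252, 284, 244 and 212 CPM in replicates 1, 3, 4 and 5, and in type I HCs at 580, 382, 380 and 407 CPM, so that no type II library reached the lowest type I library. In the cochlea the OHCs held 475, 383, 656 and 573 CPM, and the IHCs of replicates 3, 4 and 5 held 89.7, 116 and 205 CPM, again without overlap. The fold change was -0.85 ± 0.19 on the log2 scale for type II against type I HCs (1.81-fold lower, adjusted p = 0.00111). For OHCs against IHCs it was 2.02 ± 0.29 (4.07-fold higher, adjusted p = 4.04e-06). In these comparisons 19.1% and 20.6% of 4274 genes were called, and both calls for Myo15 held in 20 of 20 alternatives.

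Over whole organs Myo15 was at 307 ± 139 CPM in cHCs and 409 ± 82.8 CPM in vHCs, and the difference of -0.46 ± 0.28 on the log2 scale was not called (adjusted p = 0.248). The cochlear value of replicate 1, 475 CPM, comes from OHCs alone, because its cells with IHC markers were left out as mixed. Without this library the difference was -0.79 (adjusted p = 0.00851). Keeping the mixed cells gave -0.82 (adjusted p = 0.0106), and the range over 21 alternatives was 0.00851 to 0.654. OHCs and type I HCs, the first and second in the order, had overlapping ranges.

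The class III myosins differed in opposite directions between the organs. Myo3a was at 23.8, 158, 57.1 and 108 CPM in the cHCs of replicates 1, 3, 4 and 5, and at 15.9, 27.8, 24.4 and 30.6 CPM in vHCs, with overlap in replicate 1 of the cochlea alone. The fold change of 2.14 ± 0.35 on the log2 scale (4.42-fold higher in cHCs, adjusted p = 8.43e-05) was past the threshold in 21 of 21 alternatives. It fell to 1.35 (adjusted p = 0.0402) without cochlea replicate 3, the library that holds 68 of the 89 UMIs of Myo3a in cHCs, and it was 1.26 (adjusted p = 0.00465) with equal weights for the 2 classes of each organ. The highest adjusted p of any alternative was 0.0402. By class, the means were 133 ± 56.6 CPM in unnamed vHCs, 124 ± 75.4 in IHCs, 64.4 ± 25.9 in type II HCs, 58.8 ± 36.8 in OHCs and 17.4 ± 4.96 in type I HCs. The ranges over libraries overlapped between all neighbours in this order except OHCs and type I HCs. Type II HCs and OHCs thus overlapped although they are of different organs.

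Myo3b was a gene of vHCs. The 4 vestibular libraries held 194, 174, 188 and 194 CPM, and the cHCs held 3 UMIs in all, each in replicate 3 (6.99 CPM), with 0 UMIs in replicates 1, 4 and 5. Over the pooled UMIs of an organ, 1273 of 6959191 in vHCs and 3 of 738553 in cHCs, the level was 45.0-fold higher in vHCs, with a 95% counting interval of 15.4 to 219. The fitted log2 fold change was -5.42 ± 0.44 (adjusted p = 2.79e-08), and the call held in 21 of 21 alternatives. Without cochlea replicate 3, when no UMI was left in the cochlea, the ratio was at least 18.9-fold, counted against the limit of 3 counts over the 3 remaining libraries. The 2 UMIs in OHCs came from 1 of 77 cells, and the UMI in IHCs from 1 of 73 cells.

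**Figure D2:**
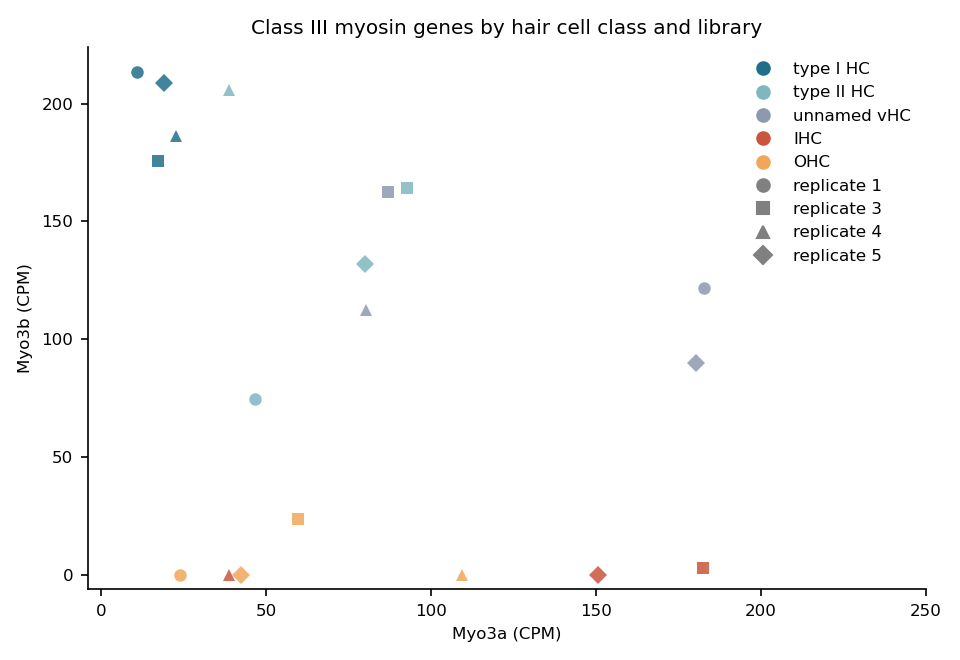
Level of Myo3b (vertical axis) against that of Myo3a (horizontal axis), both in CPM of summed UMIs, in 5 HC classes; each point is a library, colours are classes and shapes replicates. Type I libraries lie at 22.7 CPM of Myo3a or less and 176 CPM of Myo3b or more, and cochlear libraries lie along the horizontal axis.

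Among vHCs Myo3a differed between the types, and Myo3b was not called. Myo3a was at 10.8, 17.3, 22.7 and 18.9 CPM in the type I HCs of replicates 1, 3, 4 and 5 and at 46.7, 92.6, 38.6 and 79.9 CPM in type II HCs, above type I in every library. This is a log2 fold change of 1.95 ± 0.33 (3.86-fold, adjusted p = 2.05e-05), which was past the threshold in 20 of 20 alternatives. It was 0.93 (adjusted p = 0.0267) with the mixed cells kept, the highest adjusted p of any alternative. The unnamed Sox2 and Zp3 vHCs held 183, 87.0, 80.3 and 180 CPM, from 9 to 15 UMIs in each library. Their mean was higher than that of type II HCs, but the ranges overlapped, and in replicate 3 they were lower. Myo3b was at 213, 176, 186 and 209 CPM in type I and at 74.7, 164, 206 and 132 CPM in type II HCs, with overlapping ranges. That difference was -0.43 ± 0.20 (adjusted p = 0.152). With the replicate as a block, which pairs the types of 1 library, it was -0.38 (adjusted p = 0.0461), and adjusted p ran from 0.00549 to 0.461 over the alternatives.

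Within the cochlea Myo3a was at 182, 38.7 and 150 CPM in the IHCs of replicates 3, 4 and 5 and at 23.8, 59.8, 109 and 42.4 CPM in OHCs. These rest on 3 to 63 UMIs in IHCs and 2 to 5 UMIs in OHCs, and the ranges overlapped. The fold change of -1.55 ± 0.51 on the log2 scale (2.93-fold lower in OHCs) had an adjusted p of 0.0293. It was past the threshold in only 9 of 20 alternatives, with adjusted p between 0.00278 and 1. With the replicate as a block it was -1.22 (adjusted p = 0.0912), without cochlea replicates 1, 3 or 5 in turn -1.21, -1.03 and -1.58 (adjusted p = 0.157, 0.450 and 0.0656), and among cells under 10% mitochondrial UMIs -0.02 (adjusted p = 1). The call was also lost without vestibule replicates 3 or 5 (adjusted p = 0.0510 and 0.0538), whose spread enters the same fit. For Myo3b both cochlear classes were at or under 3 UMIs, and no fold is given.

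Myo1h, a class I myosin, was higher in vHCs than in cHCs and highest in type I HCs, while the ranges of type II HCs and OHCs overlapped. In replicates 1, 3, 4 and 5 it was at 128, 113, 116 and 149 CPM in type I HCs and at 37.3, 75.7, 70.8 and 59.9 CPM in type II HCs, without overlap. The unnamed vHCs held 67.2 ± 25.4 CPM. OHCs held 59.4, 0, 36.5 and 42.4 CPM, from 0 to 5 UMIs in a library, and IHCs 8.68, 12.9 and 0 CPM in replicates 3, 4 and 5, from 3, 1 and 0 UMIs. Of the neighbours in the order, only type I HCs and unnamed vHCs, the first and second, had ranges apart.

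Type II HCs were lower in Myo1h by -0.98 ± 0.24 on the log2 scale (1.98-fold lower, adjusted p = 0.00217). cHCs, with 59.4, 6.99, 19.0 and 16.6 CPM, were lower than vHCs, with 115, 108, 111 and 132 CPM, by -2.70 ± 0.39 (6.49-fold lower, adjusted p = 2.64e-05). Both calls held in every alternative, 20 of 20 and 21 of 21. The difference of the organs was -2.01 (adjusted p = 0.00144) without cochlea replicate 3, -2.11 (adjusted p = 0.00155) among cells under 10% mitochondrial UMIs and -3.34 (adjusted p = 4.17e-08) without cochlea replicate 1, the full range of adjusted p being 1.82e-11 to 0.00155. OHCs exceeded IHCs by 1.98 ± 0.89, which was not called (adjusted p = 0.121).

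Myo1c, the class I myosin that most tissues share, was at the limit of detection in HCs. None of the 738553 UMIs of cHCs was from Myo1c, which allows up to 4.06 CPM, and 12 of the 6959191 UMIs of vHCs were, with 1.33, 2.05, 2.03 and 0.76 CPM in replicates 1, 3, 4 and 5. It did not pass the filter on low counts and was not tested. The other named cells held 16.5 ± 2.40 CPM in the cochlea and 19.1 ± 5.63 CPM in the vestibule, in each of the 4 libraries above the HCs of the organ. B cell-like clusters were highest, at 134 ± 73.7 CPM in the cochlea (n = 3) and 69.6 ± 23.2 CPM in the vestibule (n = 4). The cochlear mean rests on 2, 14 and 4 UMIs in replicates 1, 3 and 5, with 189, 50.0 and 162 CPM, and over the pooled cells the level was 63.0 CPM. Macrophage-like cells held 21.1 ± 16.3 and 31.8 ± 25.6 CPM.

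**Figure D3:**
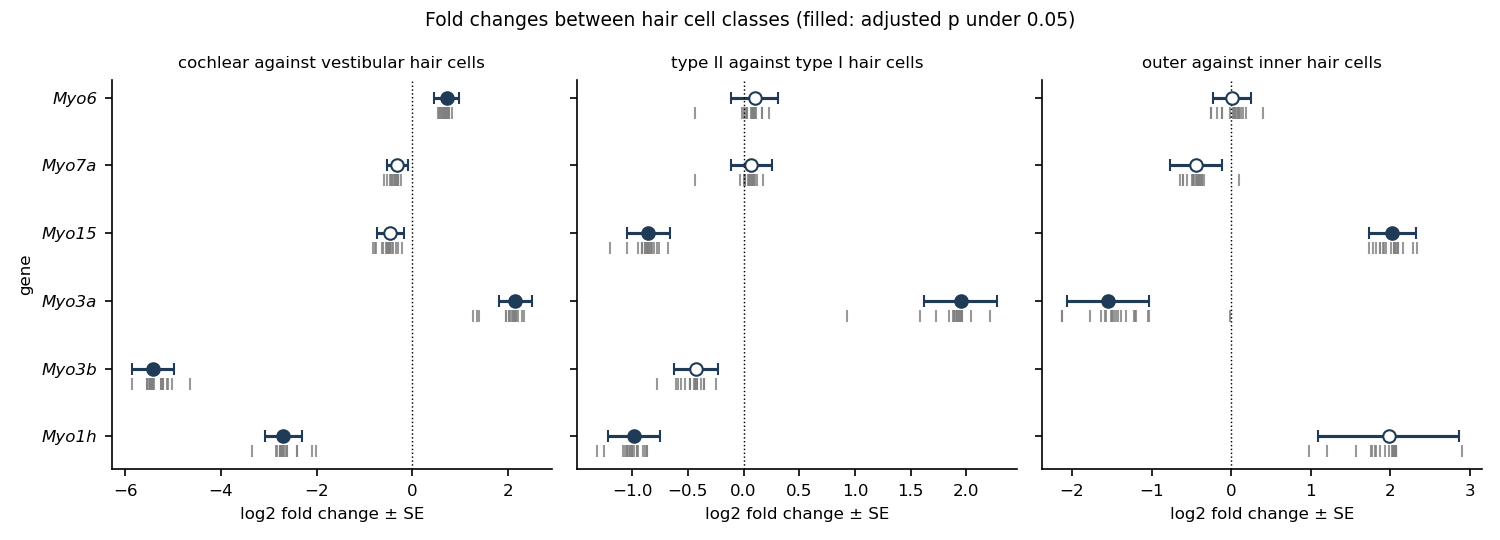
Log2 fold changes ± SE (horizontal axis) of 6 myosin genes in 3 comparisons of HC classes, with filled circles for an adjusted p under 0.05 and grey ticks for the alternative settings. Values right of the dotted line are higher in the class named first; Myo3b is left out between OHCs and IHCs, and its tick for the fit without cochlea replicate 3 is not drawn.

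Of the 6 members tested, 4 were called between the organs (Myo3a and Myo6 higher in cHCs, Myo3b and Myo1h lower), 3 between type II and type I HCs (Myo3a higher, Myo15 and Myo1h lower) and 2 between OHCs and IHCs (Myo15 higher, Myo3a lower). The shares of all genes called in these comparisons were 28.8%, 19.1% and 20.6%. The median log2 fold changes of the members were -0.39 between the organs and -0.18 between type II and type I HCs, where the medians over all genes tested were -0.04 and -0.01. Between OHCs and IHCs the median of the 5 members other than Myo3b, which had at most 3 UMIs there, was the 0.01 of Myo6, against -0.02 over all genes. Myo3a was called in all 3 comparisons, although its call between OHCs and IHCs held in only 9 of 20 alternatives, and Myo7a was the tested member called in none. The tallies above are from fits that did not pair the classes of the same library. With the replicate as a block, Myo3a was not called between OHCs and IHCs, and Myo3b was called between type II and type I HCs.

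Type I HCs were not uniform for Myo6. A subcluster of 261 type I HCs carried 4 of the 5 markers listed for striolar or central type I HCs, with Ocm in 74.7% of its cells. The striola is the central zone of the vestibular maculae, and the list does not separate it from other central zones. The other 1227 type I HCs were set beside this subcluster, which is called striolar-like. In replicates 1, 3, 4 and 5, Myo6 was at 1776, 2282, 2712 and 2763 CPM in the striolar-like HCs and at 881, 995, 1162 and 1247 CPM in the other type I HCs. The lowest striolar-like library was thus above the highest of the others, and in each library the striolar-like cells were higher. Their mean of 2383 ± 459 CPM lay in the range of IHCs and OHCs.

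Myo3b went the other way, at 158, 136, 146 and 135 CPM in striolar-like and 228, 183, 195 and 231 CPM in other type I HCs, again without overlap. Myo7a, Myo15, Myo3a and Myo1h overlapped between both groups. These groups come from the clustering, so the values are a description without a test. The median depth was 3890 UMIs per cell in striolar-like and 3969 in other type I HCs. In the subclusters of these others, of 578, 358, 232 and 59 cells, the median depth was 4217, 4486, 1550 and 7942 UMIs. The median mitochondrial share was 7.29% in the striolar-like subcluster and 4.14%, 3.70%, 14.0% and 6.72% in the others in the same order. The part of depth and mitochondrial share in these levels was not tested.

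**Figure D4:**
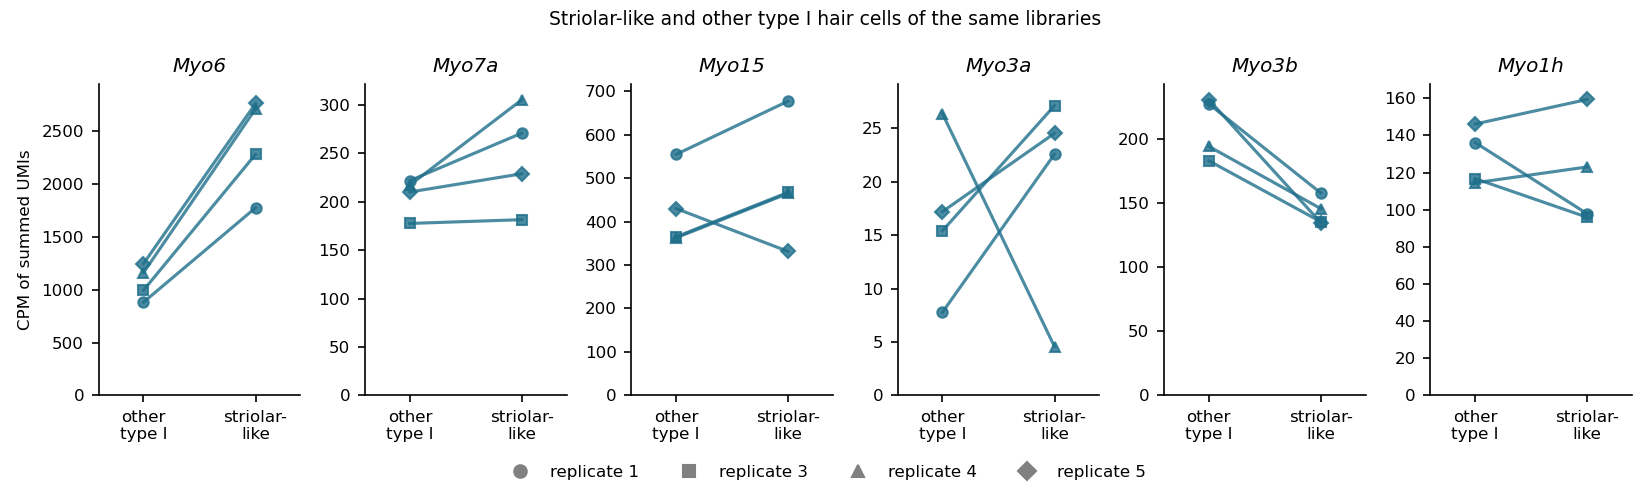
CPM of summed UMIs (vertical axis, from 0) of 6 myosin genes in striolar-like type I HCs and in the other type I HCs, with a line for each of the 4 vestibular libraries. All 4 lines rise for Myo6, from 881 to 1247 CPM up to 1776 to 2763 CPM, and all 4 fall for Myo3b.

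Another type I subcluster, of 232 cells with a median of only 1550 UMIs and 14.0% mitochondrial UMIs, held 756 ± 154 CPM of Myo15, 211 ± 27.6 CPM of Myo1h and 292 ± 63.1 CPM of Myo7a (n = 4). These values were the highest of the 5 type I subclusters for Myo15, Myo1h and Myo7a. The subcluster of 59 cells entered this ranking with replicate 3 alone (53 cells), as its other libraries held fewer than 5 cells. Depth and mitochondrial share moved with the levels of the 232 cells. Their part in these levels was not tested. The subclusters of low depth were left out in an added alternative, which changed the call for 1 member, Myo6 between the organs (0.64, adjusted p = 0.0542). IHC sums remained there only in replicates 3 and 4, from 29 and 5 cells, so this alternative says little on OHCs against IHCs.

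The share of cells in which a gene was found was compared after all cells had been thinned to 1000 UMIs. Myo6 had a UMI in 67.8% of type I HCs (95% exact binomial interval 65.4 to 70.2), 75.8% of type II HCs (69.5 to 81.4), 91.8% of IHCs (83.0 to 96.9) and 75.3% of OHCs (64.2 to 84.4). Without thinning these shares were 93.3%, 94.4%, 98.6% and 92.2%, at median depths of 3955, 4122, 5427 and 2761 UMIs. Macrophage-like cells of the vestibule, which should lack most of these genes, had Myo6 in 4.72% of 360 cells after thinning and in 12.2% before (median 2846 UMIs). The intervals cover counting error only, since cells of 1 library are not replicates.

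Myo15 had a UMI in 34.4% of type I, 21.9% of type II, 8.22% of inner and 40.3% of outer HCs after thinning (72.8%, 64.2%, 45.2% and 68.8% before). Myo3b had one in 16.7% of type I and 11.2% of type II HCs (47.4% and 39.1% before), and in 0 of 73 IHCs and 0 of 77 OHCs after thinning, where 1 cell of each had one before. By the limit of 3 counts, 0 cells allow a share of up to 4.11% and 3.90% of cells with a UMI at the thinned depth. Myo3a was found in 1.61%, 5.58%, 12.3% and 3.90% of type I, type II, inner and outer HCs after thinning and in 5.85%, 22.8%, 43.8% and 13.0% before. For Myo1h the thinned shares were 13.2% and 6.51% of type I and type II HCs, 0 of 73 IHCs and 1.30% of OHCs. Those of Myo7a lay between 15.6% and 18.3% in all 4 types. Thinned macrophage-like cells of the vestibule had Myo15, Myo3a, Myo3b and Myo1h in 0 of 360 cells, which allows up to 0.833%, and Myo7a in 2.22%. Myo1c, in 0.605% of type I HCs before thinning, stood below its 7.78% of macrophage-like cells.

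**Figure D5:**
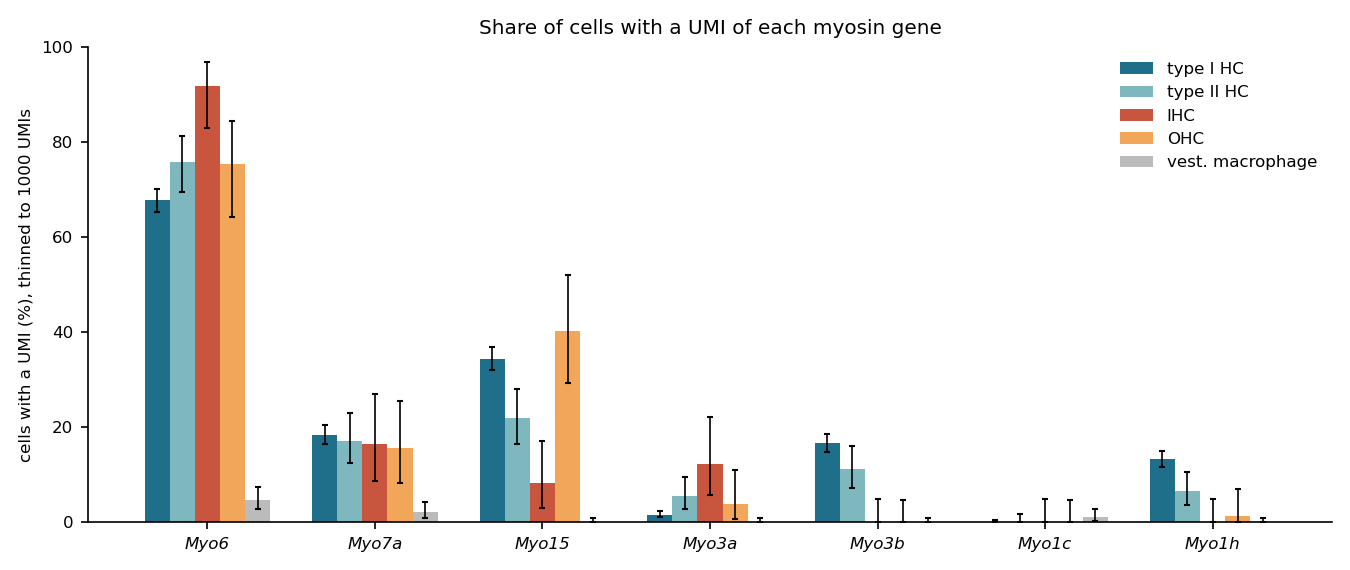
Share of cells with a UMI of each myosin gene (vertical axis, percent) after each cell was thinned to 1000 UMIs, in 4 HC types and in macrophage-like cells of the vestibule; error bars are 95% exact binomial intervals for counting error. IHCs are highest for Myo6 (91.8%) and lowest of the 4 types for Myo15 (8.22%).

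A type I HC held UMIs of 1.52 of the 7 genes on average at this depth, a type II HC of 1.38, an IHC of 1.29 and an OHC of 1.36. At least 3 members were found together in 16.1% of type I, 11.6% of type II, 4.11% of inner and 2.60% of outer HCs.

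Of the 17 other unconventional myosin genes, few reached the HCs. Myo1e (42.7 ± 28.6 CPM in cHCs, 47.8 ± 9.3 in vHCs) and Myo9a (41.7 ± 14.3 and 40.4 ± 2.8) were the highest, followed by Myo1d in cHCs (32.3 ± 13.0) and Myo18a in vHCs (31.8 ± 5.7). Between the organs 5 were tested and 1 was called, where 28.8% of all genes were: Myo1d was 5.42-fold higher in cHCs (2.44 ± 0.48 on the log2 scale, adjusted p = 0.000665, 19 UMIs in cHCs and 35 in vHCs). Myo1e alone was tested within the organs, lower in type II than in type I HCs (-0.997 ± 0.309, adjusted p = 0.0194) and higher in OHCs than in IHCs (3.15 ± 0.67, adjusted p = 0.000672, 4 UMIs in IHCs). In macrophage-like cells the leading ones were Myo1f (146 ± 43.7 and 93.5 ± 20.6 CPM in cochlea and vestibule), Myo5a (138 ± 26.1 and 127 ± 52.9) and Myo1e in the cochlea (113 ± 88.6) or Myo9b in the vestibule (59.1 ± 28.4). Myo1f had no UMI in the HCs of either organ.

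Partners that the myosins are known to bind or carry were taken as a list of 28 genes, which were not held out of the clustering. Between the organs 23 were tested, of which 7 were higher and 6 lower in cHCs (median log2 fold change 0.23, against -0.04 over all genes), where 12.2% and 16.6% of all genes were called higher and lower. The 3 cargo genes of class III myosins all passed the threshold: Morn4, a MORN repeat partner of MYO3A, was higher in cHCs (1.88 ± 0.26, adjusted p = 1.69e-05), and espin-like (Espnl, -5.08 ± 0.46) and espin (Espn, -1.46 ± 0.24) were lower. Espnl was at 249 ± 83.5 CPM in vHCs and 6.21 ± 4.3 CPM in cHCs, from 5 UMIs there. Cdh23, the upper part of the tip link, was higher (1.70 ± 0.30, adjusted p = 0.000211), as was whirlin (Whrn, 1.62 ± 0.33, adjusted p = 0.000849). Pdzd7, of the ankle links (-2.25 ± 0.45, adjusted p = 0.000711), and Ptprq, of the shaft connectors near the base (-2.19 ± 0.34, adjusted p = 5.89e-05), were lower.

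Within the vestibule 21 partners were tested, 1 higher and 4 lower in type II HCs (10.2% and 8.89% of all genes; median -0.17, against -0.01). Gpsm2, a polarity protein of the tip complex of myosin XV, was higher (0.69 ± 0.25, adjusted p = 0.0477), and Ptprq (-1.07 ± 0.26, adjusted p = 0.00201), Espnl (-1.01 ± 0.23, adjusted p = 0.00123) and Espn (-0.98 ± 0.22, adjusted p = 0.000881) had the largest changes downwards.

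Within the cochlea 5 of the 21 partners were higher and 4 lower in OHCs (9.69% and 10.9% of all genes; median -0.29, against -0.02). Eps8, an actin regulator of the stereocilia tips (1.88 ± 0.55, adjusted p = 0.0132), Clic5, of the stereocilia base (1.42 ± 0.30, adjusted p = 0.000517), and the tip link gene Pcdh15 (1.28 ± 0.44, adjusted p = 0.0340) rose most. Calm2 (-1.85 ± 0.26), whose protein calmodulin is a light chain of these motors, was lower. Whirlin had 56 of 496234 UMIs in IHCs and 1 of 242319 in OHCs, a ratio of 27.3 with a counting interval of 4.71 to 1099. Myo15 was higher and its cargo Whrn lower in the same OHCs (adjusted p = 4.04e-06 and 4.26e-05).

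To place the members among all genes, the means of 27 classes were compared by Pearson's r of log2(CPM + 1) over 15751 genes, as a description over class means that share libraries and depth. Closest to Myo6 were Nbeal1 (r = 0.90), Ankrd24 (0.89), which codes for a protein of the stereocilia rootlets, and Cdc42bpa (0.88). Gipc3 (0.87), Grxcr1 (0.87), both deafness genes, and Kcnh8 (0.86) were closest to Myo7a. The kinocilin gene Kncn (0.95) and Tomt (0.94), needed for the transduction channel, were among the 3 closest to Myo15, and Gm34653 (0.97) and Tomt (0.96) among the 3 closest to Myo3a. Myo3b ran closest to Maats1 (0.92), Efcab6 (0.92) and its known cargo Espnl (0.91). Myo1h was nearest to Cpne9 (0.91), the HC transcription factor gene Lhx3 (0.91) and Tmem255b (0.91). The closest genes to Myo1c were Brip1os (0.80), Psme1 (0.79) and Notch2 (0.79), none of which is known as an HC gene.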

How the data were processed

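Single-cell RNA sequencing (10x Genomics 3′ v3.1) of cochlear and vestibular sensory epithelia was analysed in 10 libraries, 5 of each organ. The authors aligned reads to mm10 and counted UMIs with Cell Ranger. Version 6.1.2 is named in the submitters' processing notes, while the file headers name 5.0.1 in replicates 1 and 2 and 6.1.2 elsewhere. The deposited values are raw counts of UMIs per gene and barcode, and no depth scaling was applied by the authors to them.

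Cells entered with 200 or more genes, 1000 or more UMIs and a mitochondrial share under 25%. In Seurat 5.3.0 (R 4.3.3) the cells of each organ were clustered on 2000 variable genes and 30 principal components at resolution 1, and HCs again at 0.5, with the 7 myosins held out. A cluster was named from at least 3 enriched markers (a UMI in at least 25% of its cells and a log2 fold of at least 1), and clusters led by the genes of another class were treated as mixed. HC subclusters of the vestibule were named type II where Sox2 was found in more cells than Adam11, and type I otherwise. Those of the cochlea took the list, of IHCs or OHCs, with the larger share of enriched markers. A type also needed at least 3 of its markers found in at least 25% of cells, enriched or not. The rules for mixed, unnamed and striolar-like clusters date from after the clusters were seen. No doublet caller was run, and doublets may remain.

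UMIs were summed per library and class with at least 5 cells, and levels are CPM with the mean and SD of libraries. cHCs were compared with vHCs in a fit of their own, and type II with type I HCs and OHCs with IHCs in 1 fit over the 4 classes. Tests used edgeR 4.0.16 (quasi-likelihood, TMM factors, filterByExpr, and Benjamini-Hochberg values over all genes at 0.05). On simulated counts with 200 changed genes, 99%, 100% and 93% of 4-fold changes and 63%, 86% and 46% of 2-fold changes were recovered for the organs (7464 genes), the vestibular types and the cochlear types (4274 genes each). Unchanged genes gave 6, 4 and 10 false calls. The changed genes were drawn at or above the median level, and all genes shared a common dispersion. Recovery for genes of few UMIs was therefore not measured. Intervals and limits of 3 counts cover counting error only. Each library is a pool of mice, so p-values measure the spread between pools.

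The members, lists and tests were chosen with earlier results of these data known. All 7 members are named. Of the other myosins and of the partners, the text names up to 3 called genes of largest change per direction and comparison, and of the other myosins also the 3 highest in HCs and in macrophage-like cells. Espn between the organs was named to complete the 3 cargo genes, and Myo1f in HCs for its 0 UMIs, both after their values had been seen. For each member the 3 genes with the most similar class means are named. Some genes that these rules select are not reported here. DESeq2 1.42.0 served as an alternative.

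Type II and type I HCs of 1 number come from the same library and hence the same animals, as do OHCs and IHCs, so their numbers pair them. The correlations of their deviations from the group means were 0.231, 0.150, 0.199 and 0.212 for the vestibular types in replicates 1, 3, 4 and 5 and -0.01, 0.173 and 0.100 for the cochlear types in replicates 3, 4 and 5.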

Additional observations from a re-analysis of the deposited data

Results flagged for a closer look

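Of 33 groups of 4 libraries, 4 held a library far from the others by Dixon's criterion at 95%, where chance gives about 1 in 20. Myo15 stood high in vestibule replicate 1, at 580 CPM in type I HCs (the others 380 to 407 CPM) and at 533 CPM in all vHCs (the others 365 to 370 CPM), which are values of largely the same cells. Myo3b was at 23.9 CPM in the OHCs and 6.99 CPM in all cHCs of replicate 3, from 2 and 3 UMIs, with 0 UMIs in the other 3 cochlear libraries. Where all others are at 0, any UMI meets the criterion. The flags of Myo3b therefore do not tell how unusual replicate 3 was.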

How the results depend on the processing

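Under the alternatives, 324 member fold changes kept their direction and their side of the threshold, 24 lost a call, 6 gained one and 12 changed sign. Without each library in turn, the genes called numbered 1712 to 2675 between the organs (2148 with all), 403 to 1113 between type II and type I HCs (815; 403, 498 and 441 without vestibule replicates 3, 4 and 5) and 590 to 898 between OHCs and IHCs (882). Among cells under 10% mitochondrial UMIs they were 1246 and 393 for organs and OHCs against IHCs. For type II against type I HCs they were 1561 with no filter on low counts and 2272 with mixed cells kept. For Myo6 between organs the fold change lost its call with RLE factors (0.67), no filter (0.56), low mitochondrial content (0.75), mixed cells kept (0.54), myosins among the clustering genes (0.67) and without subclusters of low depth (0.64), and was 0.58 to 0.83 without 1 library. Myo7a (-0.60 with mixed cells, -0.47 with equal class weights) and Myo15 (-0.82 with mixed cells) gained a call, and Myo15 was -0.79 to -0.21 without 1 library. For type II against type I HCs, Myo3b gained a call with the replicate block (-0.38) and with mixed cells (-0.78), and Myo6 and Myo7a, never called, changed sign with no filter (-0.013 and -0.029) and mixed cells (-0.43 and -0.44). For OHCs against IHCs, Myo3a lost its call with DESeq2 (-1.39), the replicate block (-1.22), low mitochondrial content (-0.017), mixed cells (-1.33), without HCs above 2 times the median UMI count (-1.04), at resolution 2 (-1.20) and without single libraries (-2.12 to -1.03). Myo6, never called there, changed sign with no filter (-0.18), low mitochondrial content (-0.12), myosins among the clustering genes (-0.012), sums of at least 10 cells (-0.25) and without single libraries (-0.25 to 0.19), Myo7a with mixed cells (0.10), and Myo3b ran from 0 to 2.50 without single libraries on at most 3 UMIs. The causes were not tested.

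Cochlear and vestibular libraries of 1 number share only that number. Their deviations correlated at 0.0653, 0.0682, 0.107 and 0.0405, each higher than with any other number, and the replicate block called 1934 genes (2148 without it), with Myo6 at 0.69 (adjusted p = 0.019). Outside the results named, the block changed no call of a member. Of 224 class levels 4 moved by more than 1 SD, of Myo15 in OHCs (389 CPM under low mitochondrial content, 679 CPM as the mean of single cells) and of Myo1c in type I HCs (1.04 and 1.08 CPM), and 23 of 28 shares moved without thinning. Depth limits the cochlear values, where 150 HCs held 738553 UMIs against 6959191 in 1703 vHCs. The 2 alternatives on class weights and on subclusters of low depth were added after the data had been seen.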
